A study of Mus musculus with 4 samples.

Results

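Low-depth nuclear-type endocrine barcodes were shallow cell barcodes of mouse islet libraries. They had under 20% insulin transcripts and had transcripts of several genes from a fixed set of 8. A barcode was a member when it held 1000 to 3000 unique molecular identifiers (UMIs, each standing for 1 captured RNA molecule), at least 500 genes, at most 15% mitochondrially encoded UMIs, under 20% of UMIs on Ins1 and Ins2, and UMIs of at least 3 of 8 genes: Mlxipl, Cacna1d, Phactr1, Madd, Insrr, Gm26917, A330076H08Rik and Gm45486. By this rule 1313 of the 26121 barcodes that passed the same lower limits on UMIs and genes and the mitochondrial limit were members, out of 35079 barcodes in 4 libraries. The rule read measured values, so the depth, the insulin share and the levels of the 8 genes describe the choice and support nothing.

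Islets came from female mice on the C57b6/J background, all of which had received diphtheria toxin, in 4 injections 48 h apart beginning on postnatal day 2, and were weaned at day 21. CCR2-DTR+/- mice, whose transgene makes CCR2-expressing cells sensitive to the toxin, were set against WT mice (CCR2-DTR-/-) at 6 months and at 1 month of age. Each of the 4 libraries pooled 300 hand-picked islets from 2 to 3 females, so each combination of genotype and age was 1 library without replicates, and every interval below covers counting error only. The libraries held 60315217 to 121292320 UMIs. Members numbered 444 of CCR2-DTR islets at 6 months, 777 of WT islets at 6 months, 60 of CCR2-DTR islets at 1 month and 32 of WT islets at 1 month, and 120 barcode sequences recurred between libraries, summed over pairs of libraries, but no member's barcode recurred as a member of another library.

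A cell barcode normally collects the RNA of a whole cell, of which most is cytoplasmic messenger RNA. Long noncoding RNAs such as Malat1, which sits in nuclear speckles, Neat1, which builds paraspeckles, and Xist, which coats the inactive X chromosome, stay in the nucleus, as do unspliced and intron-retaining transcripts. The messenger RNA of Mlxipl, a glucose-responsive transcription factor, has been described as largely retained in the nucleus of mouse beta cells and hepatocytes. Messenger RNAs of secreted proteins are translated at the endoplasmic reticulum, and those of ribosomal proteins are abundant and cytoplasmic. The kit captures RNA through an oligo-dT primer, which binds poly(A) tails and can also bind stretches of A inside a transcript.

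The A runs of the noncoding transcripts that the results below turn on are shown as they stand in the GENCODE vM21 transcripts on GRCm38, 5′ to 3′ on the transcript's strand, with the longest run of A in capitals and its flanks in lower case. Malat1, Meg3 and Kcnq1ot1 are nuclear noncoding RNAs that were not part of the rule, and A330076H08Rik and Gm26917 are noncoding genes of the rule.
Malat1-201, chr19:5795976-5796011, minus strand: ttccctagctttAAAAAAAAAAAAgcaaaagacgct
Meg3-209, chr12:109545805-109545844, plus strand: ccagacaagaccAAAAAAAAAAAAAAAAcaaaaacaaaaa
Kcnq1ot1-201, chr7:143226933-143226997, minus strand: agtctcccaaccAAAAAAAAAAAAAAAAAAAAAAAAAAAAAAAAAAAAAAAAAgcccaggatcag
A330076H08Rik-203, chr7:61930138-61930168, minus strand: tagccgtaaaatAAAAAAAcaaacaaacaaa
Gm26917-202, chr17:39845124-39845151, plus strand: gcgtgcgaggggAAAAggttgccccgcg
The longest run was 12 bases in Malat1, 16 in Meg3 and 41 in Kcnq1ot1, against 7 in A330076H08Rik and 4 in Gm26917. A run of 10 or more did not divide nuclear RNAs from genes of the rule: the longest run was 7 bases in Neat1 and Firre and 5 in Mirg, nuclear RNAs outside the rule, and 18 in Madd, 14 in Phactr1 and 10 in Cacna1d, genes of the rule. It is a common feature, held by an annotated transcript of 38% of the 3829 genes compared below. The intron sequences were not analysed here, and a run is a match of letters, not a shown priming site.

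Levels are given as counts scaled to a total of 1000000 (CPM) over all UMIs except those of Ins1 and Ins2, summed over the barcodes of a set. The main comparison set, called beta barcodes here, held barcodes above 3000 UMIs with at least 20% insulin UMIs and under 2% of each other islet hormone. Alpha barcodes had at least 5% Gcg. By construction the 8 genes of the rule were high in members. Mlxipl stood at 1263 CPM in members and 338 CPM in beta barcodes of CCR2-DTR islets at 6 months, 1495 and 383 CPM in WT islets at 6 months, 650 and 310 CPM in CCR2-DTR islets at 1 month, and 495 and 319 CPM in WT islets at 1 month. A330076H08Rik, a noncoding transcript of chromosome 7 (GRCm38, chr7:61930137-61982358, minus strand), stood at 2921, 2769, 908 and 974 CPM in members and 516, 509, 337 and 392 CPM in beta barcodes, in the same order of libraries. Gm45486, which lies inside Abcc8 on the opposite strand, stood at 294, 421, 320 and 222 CPM in members and 22.5, 25.2, 27.5 and 23.0 CPM in beta barcodes. Both 6-month libraries were further above their beta barcodes than the 1-month libraries for Mlxipl and A330076H08Rik. At least 5 of the 8 genes were detected in 73.0% and 81.3% of members at 6 months in CCR2-DTR and WT islets, and in 31.7% and 15.6% at 1 month. Whether the counting used strand is not stated, so it is not known whether reads of a gene and its antisense partner were kept apart.

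At the edges of the rule some values stepped. Over the 4 libraries 136 members had 3 of the 8 genes, while 163 barcodes met every other limit with 2. Malat1 stood at 121120 CPM in the members with 3 genes and 91298 CPM in the barcodes with 2 in CCR2-DTR islets at 6 months, and at 155584 and 98349 CPM in WT islets at 6 months. In CCR2-DTR islets at 1 month it stood at 93676 and 48897 CPM. Ribosomal protein genes stood at 22591 CPM with 3 genes and 71026 CPM with 2 in CCR2-DTR islets at 6 months, and at 15853 and 32534 CPM in WT islets at 6 months. Barcodes with 2 of the genes thus had less Malat1 and more ribosomal protein RNA in these libraries. At the insulin limit 188 members had 18 to 20% insulin UMIs and 125 barcodes had 20 to 22%. Malat1 stood at 99276 CPM inside and 71191 CPM outside this limit in CCR2-DTR islets at 6 months. In WT islets at 6 months it stood at 112806 and 107226 CPM. In CCR2-DTR islets at 1 month it was higher outside, at 124216 CPM inside and 153165 CPM outside. At the UMI limit 167 members had 2500 to 3000 UMIs, and 66 barcodes had up to 500 UMIs more than the limit. Malat1 stood at 156370 CPM inside and 127186 CPM outside this limit in CCR2-DTR islets at 6 months. It stood at 155450 and 145664 CPM in WT islets at 6 months. In CCR2-DTR islets at 1 month it stood at 54236 and 63898 CPM, from 8 and 18 barcodes.

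Members made up 10.1% of passing barcodes in CCR2-DTR islets at 6 months (Clopper-Pearson interval 9.23 to 11.0) and 20.9% in WT islets at 6 months (19.6 to 22.2). At 1 month they were 0.673% in CCR2-DTR islets (0.514 to 0.866) and 0.352% in WT islets (0.241 to 0.496). The ratio of CCR2-DTR to WT was 0.484 at 6 months (interval 0.430 to 0.545) and 1.91 at 1 month (1.23 to 3.04). The ratio of 6 months to 1 month was 15 in CCR2-DTR islets (11.4 to 20) and 59.4 in WT islets (41.7 to 87.4). At the 20% insulin limit genotype pointed in opposite directions at the 2 ages. With a limit of 10% the ratio of CCR2-DTR to WT was 0.0605 at 6 months and 0.471 at 1 month, and the ratio of 6 months to 1 month in CCR2-DTR islets was 0.338. These ratios rest on 2 and 28 barcodes at 6 months and 12 and 26 at 1 month, CCR2-DTR before WT. On these few barcodes the genotype ratio at 1 month and the age ratio in CCR2-DTR islets lay on the other side of 1. The insulin limit bore on these shares: without it, 547 and 919 barcodes at 6 months and 312 and 59 at 1 month, CCR2-DTR before WT, met the rest of the rule, which gave ratios of CCR2-DTR to WT of 0.504 at 6 months and 5.40 at 1 month and ratios of 6 months to 1 month of 3.56 in CCR2-DTR and 38.1 in WT islets. The CCR2-DTR 1-month library thus held 252 barcodes with 3 or more of the 8 genes that were left out for insulin alone, more than 4 times its 60 members. The share of all barcodes at 1000 to 3000 UMIs with under 20% insulin that were members was 71.8% in CCR2-DTR and 89.2% in WT islets at 6 months, and 11.9% in CCR2-DTR and 5.24% in WT islets at 1 month.

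**Figure D1:**
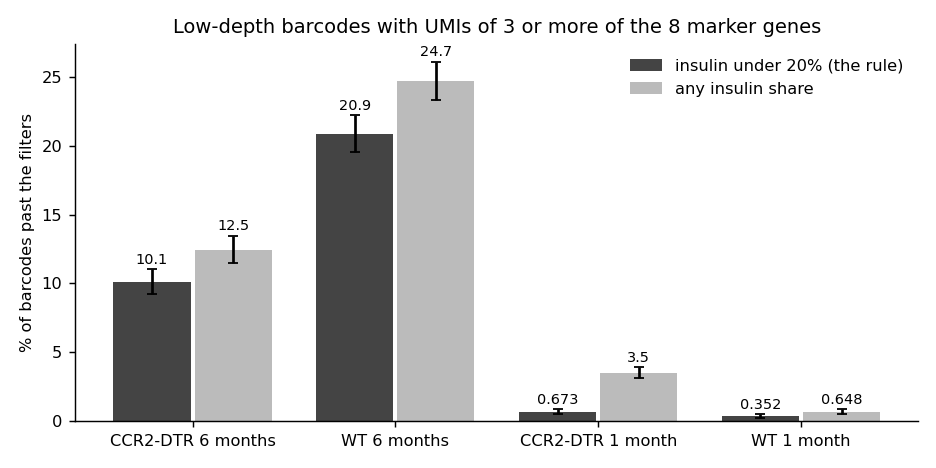
Members as a percentage of passing barcodes in the 4 libraries (bars with exact 95% Clopper-Pearson intervals), with the insulin limit of the rule and without it. With the limit the bars stand at 10.1% and 20.9% at 6 months in CCR2-DTR and WT islets, and at 0.673% and 0.352% at 1 month.

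Nuclear noncoding RNA outside the rule was higher in members of every library. Malat1 stepped with the number of genes of the rule, and beta barcodes lie beyond its depth and insulin limits. This contrast and those with beta barcodes below therefore describe the chosen barcodes. The median share of UMIs on Malat1 was 9.95% of a member's UMIs in CCR2-DTR islets at 6 months, 11.6% in WT islets at 6 months, 9.28% in CCR2-DTR islets at 1 month and 6.49% in WT islets at 1 month, against 1.22%, 1.27%, 1.28% and 1.24% in beta barcodes. Low-depth endothelial barcodes, which had 3 or more endothelial markers at the same depth, stood at 2.85%, 4.28%, 3.45% and 4.37%. Members were therefore above both sets in all 4 libraries, and the low-depth endothelial barcodes were themselves above the beta barcodes.

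**Figure D2:**
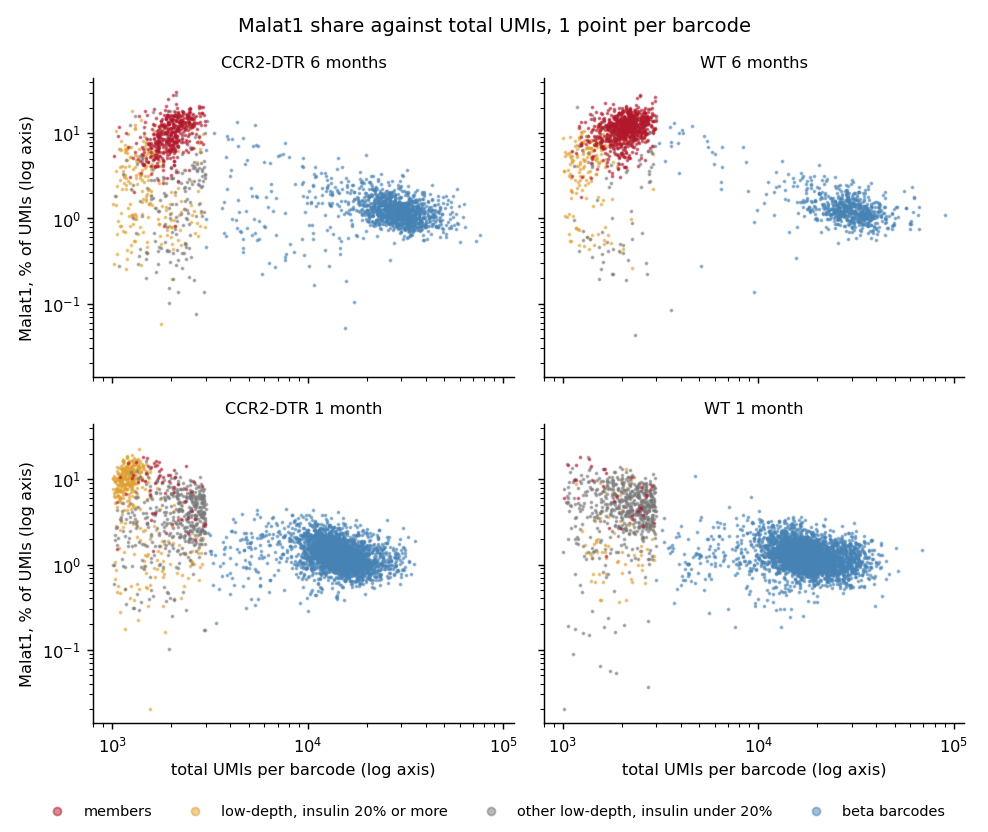
Malat1 as a percentage of UMIs against total UMIs, both on log axes, 1 point per barcode, for members, low-depth barcodes with 20% or more insulin, other low-depth barcodes and beta barcodes. Members occupy the upper left, with medians of 6.49% to 11.6%, and beta barcodes the lower right, with medians of 1.22% to 1.28%.

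Malat1 levels were 127526 CPM in members and 24342 CPM in beta barcodes of CCR2-DTR islets at 6 months, 139888 and 25540 CPM in WT islets at 6 months, 97334 and 22869 CPM in CCR2-DTR islets at 1 month, and 74554 and 25264 CPM in WT islets at 1 month (log2 ratios of 2.39, 2.45, 2.09 and 1.56). Meg3, a maternally expressed imprinted noncoding RNA that is abundant in islets, stood at 16291, 14322, 7708 and 4442 CPM in members and 3462, 3160, 2925 and 3043 CPM in beta barcodes. Its log2 ratio was 2.23, 2.18, 1.40 and 0.55. Members of all 4 libraries lay above their beta barcodes for both RNAs, with the smallest differences in WT islets at 1 month. Low-depth endothelial barcodes carried 31925 to 46242 CPM of Malat1, between beta barcodes and members, and 79.6 to 176 CPM of Meg3, below both.

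The other nuclear RNAs followed the same order. Xist, expressed from the inactive X chromosome of these female mice, stood at 9116, 8659 and 4561 CPM in members and 1718, 1764 and 1210 CPM in beta barcodes of CCR2-DTR islets at 6 months, WT islets at 6 months and CCR2-DTR islets at 1 month, the 3 libraries with 50 or more members. Kcnq1ot1, an imprinted RNA that silences its neighbours, stood at 3241, 3354 and 1682 CPM in members and 618, 599 and 503 CPM in beta barcodes. Neat1 stood at 618, 545 and 413 CPM in members and 187, 186 and 177 CPM in beta barcodes. All 3 RNAs were higher in members in each of these libraries. Of 16 nuclear noncoding RNAs listed, 14, 14 and 12 reached 50 CPM in either set with 10 UMIs, all of them higher in members, and 14, 14 and 11 of them at least 2-fold. Of all genes past that floor, 56.9%, 54.5% and 55.0% were higher in members. Their median log2 ratio was 2.25, 2.02 and 1.59, against 0.27, 0.18 and 0.18 over all genes past that floor. Summed over the list, the log2 ratio was 2.26 ± 0.22 (SD, n = 3 libraries), and 2.02 with Malat1 left out. With insulin kept in the totals it was 2.90, since that scaling adds 0.68, 0.70, 0.57 and 0.89 to every log2 ratio in CCR2-DTR and WT islets at 6 months and CCR2-DTR and WT islets at 1 month. Gas5, a host transcript of small nucleolar RNAs that is decayed in the cytosol, was at 217, 188 and 175 CPM in members and 228, 197 and 150 CPM in beta barcodes.

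**Figure D3:**
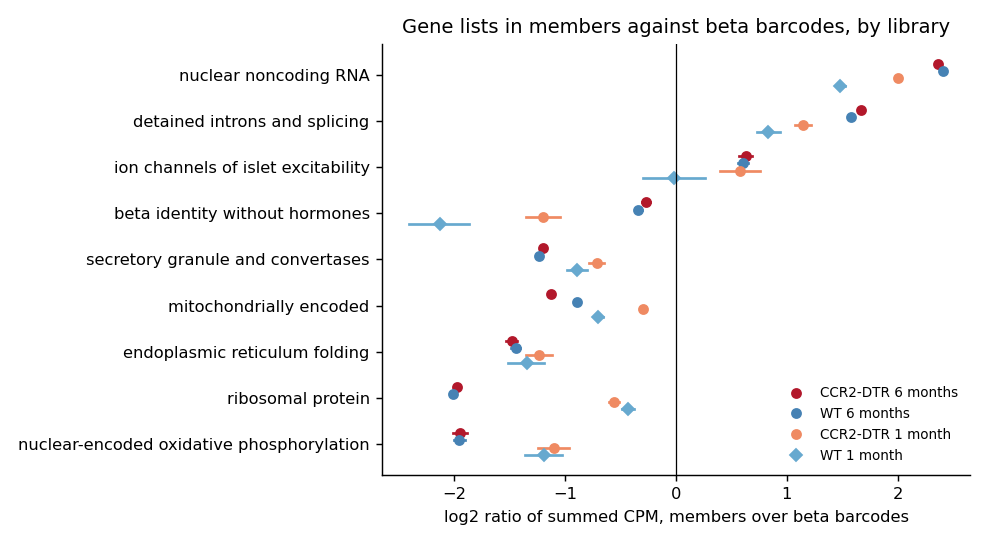
Log2 ratio of the summed CPM of gene lists, members over beta barcodes, with each library as a point. Nuclear noncoding RNAs and splicing genes lie to the right of 0, and ribosomal protein, oxidative phosphorylation and endoplasmic reticulum folding genes lie to the left in all 4 libraries, with insulin left out of the totals. The ribosomal protein points of the 1-month libraries, at -0.56 and -0.43, move to 0.004 and 0.46 with insulin kept in.

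A mixed list of 25 genes, of genes with detained introns and of splicing regulators, was also higher in members. Only gene totals were counted, so intron retention itself was not measured. In each of the 3 libraries with 50 or more members 25 of 25 were higher in members. At least 2-fold were 25, 23 and 15, in CCR2-DTR and WT islets at 6 months and CCR2-DTR islets at 1 month. Of all genes past the floor, 56.9%, 54.5% and 55.0% were higher. The summed level was 3.18, 2.99 and 2.21 times that of beta barcodes. Srsf7, a splicing factor of the SR family, had 1645, 1614 and 1145 CPM in members and 227, 218 and 260 CPM in beta barcodes, log2 ratios of 2.86, 2.89 and 2.14. Clk1, a kinase that phosphorylates SR proteins, had 524, 434 and 206 CPM in members and 136, 115 and 106 CPM in beta barcodes. Both genes were higher in members in each of these 3 libraries. In WT islets at 1 month Srsf7 had 888 CPM in members and 223 CPM in beta barcodes. Clk1 had 171 CPM in members of that library, from 10 UMIs, and 109 CPM in beta barcodes (interval of the ratio 0.754 to 2.90).

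Ribosomal protein transcripts, which are abundant in the cytoplasm, were lower in members. Of all genes past the floor, 56.9% and 54.5% were higher in members at 6 months, CCR2-DTR before WT. At 1 month 55.0% and 56.3% were higher. All 76 ribosomal protein genes past the floor were at least 2-fold lower in members of both 6-month libraries, where their summed level was 0.254 times that of beta barcodes in CCR2-DTR islets and 0.247 times in WT islets. Rps29, a protein of the small ribosomal subunit, had 171 and 131 CPM in members and 792 and 632 CPM in beta barcodes of CCR2-DTR and WT islets at 6 months. At 1 month the difference was smaller: 76 of 77 ribosomal protein genes were lower in members of CCR2-DTR islets, 9 of them at least 2-fold, and the summed level was 0.678 times that of beta barcodes. With insulin kept in the totals the list stayed lower at 6 months, at log2 ratios of -1.30 and -1.32 in CCR2-DTR and WT islets, and was at 0.004 and 0.46 at 1 month, so its direction at 1 month depended on the scaling. Of 34 nuclear-encoded genes of oxidative phosphorylation, 34 were lower in members of every library, with summed ratios of 0.260, 0.258, 0.465 and 0.438 in CCR2-DTR and WT islets at 6 months and CCR2-DTR and WT islets at 1 month. Mitochondrially encoded RNA, which is held inside mitochondria, was at 0.457, 0.538, 0.814 and 0.616 times the beta level. The mitochondrial RNA was lower by less than the nuclear-encoded genes in each library, and with insulin kept in the totals its log2 ratio was -0.45 and -0.20 in CCR2-DTR and WT islets at 6 months but 0.27 and 0.19 at 1 month, while the nuclear-encoded list stayed between -1.27 and -0.30.

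Genes of the endoplasmic reticulum were lower in members under either total, and those of the secretory granule were lower in all libraries but WT islets at 1 month, where the log2 ratio of -0.89 became 0.002 with insulin kept in the totals. All 18 folding genes were lower in members at 6 months, 16 in CCR2-DTR and 15 in WT islets at least 2-fold, with summed ratios of 0.358 and 0.367, and the ratio in CCR2-DTR islets at 1 month was 0.424. Of all genes past the floor, 56.9% and 54.5% were higher in members at 6 months. Chga, which encodes the granule protein chromogranin A, had 3182, 3874 and 5417 CPM in members and 12208, 14377 and 11449 CPM in beta barcodes of CCR2-DTR and WT islets at 6 months and CCR2-DTR islets at 1 month. Iapp, which encodes the islet amyloid polypeptide secreted with insulin, had 19393, 16684 and 26446 CPM in members and 93164, 94124 and 109688 CPM in beta barcodes. Members were below beta barcodes in each library for both genes. Granule genes with higher levels in members were Ptprn2, a phosphatase-like granule membrane protein, at 410, 444 and 351 CPM against 139, 136 and 126 CPM in beta barcodes, and Snap25, a membrane fusion protein, at 642, 612 and 248 CPM against 203, 190 and 167 CPM. Pcsk2, a convertase of prohormones, was near equality, with log2 ratios of -0.08, -0.12 and 0.14.

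Ion channel genes were divided. Cacna1a, a pore subunit of voltage-gated calcium channels, had 541, 563 and 423 CPM in members and 157, 162 and 140 CPM in beta barcodes of CCR2-DTR and WT islets at 6 months and CCR2-DTR islets at 1 month. Cacnb2, an accessory subunit of the same channels, had 209, 180 and 144 CPM in members and 49.5, 51.5 and 44.1 CPM in beta barcodes. Trpm5, a calcium-activated cation channel, had 121, 105 and 82.5 CPM in members and 341, 335 and 238 CPM in beta barcodes. Cacna1a and Cacnb2 were thus higher and Trpm5 lower in each of these libraries. Cacna2d1, another calcium channel subunit, was near equality, at 315, 341 and 196 CPM in members and 266, 267 and 190 CPM in beta barcodes. Of the 22 listed channel genes 14, 15 and 15 were past the floor, of which 10, 11 and 11 were higher in members. Of all genes past the floor, 56.9%, 54.5% and 55.0% were higher. Abcc8 and Kcnj11, the subunits of the ATP-sensitive potassium channel, had log2 ratios of 0.35, 0.43 and 0.45 and of -0.24, -0.46 and -0.97.

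Among the 3829 genes past the floor in all 3 libraries with 50 or more members, 370 (9.66%) were at least 2-fold higher in members with an interval that excluded 1 in each library, and 347 (9.06%) were lower by the same rule. With insulin kept in the totals 829 were higher and 35 lower, and without the library of CCR2-DTR islets at 1 month, which has the fewest members of the 3, 993 were higher and 929 lower. The genes of the rule, Ins1 and Ins2 were not counted. Of the higher genes 32 were noncoding and 0 encoded ribosomal proteins, against 2 and 9 of the lower genes. Noncoding genes were thus 8.65% of the higher and 0.576% of the lower genes, against 1.91% of all genes past the floor, while ribosomal protein genes were 2.59% of the lower genes, close to their 1.98% of all. The nuclear list supplied 9 of its 12 genes past the floor to the higher genes. The list of detained introns and splicing regulators supplied 15 of 25. The endoplasmic reticulum list supplied 12 of 18 genes to the lower ones, and the oxidative phosphorylation list 20 of 34.

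The 10 higher genes with the most extreme ratio in their least extreme library were mostly noncoding or antisense. Gm10848, annotated inside Cacnb2 on the opposite strand, had 96.8, 94.5 and 72.2 CPM in members and 2.66, 3.07 and 3.33 CPM in beta barcodes of CCR2-DTR and WT islets at 6 months and CCR2-DTR islets at 1 month. Tsix, the antisense partner of Xist, had 958, 1038 and 588 CPM in members and 67.3, 72.4 and 48.2 CPM in beta barcodes. Gm26724 inside Lemd2, E530011L22Rik across the end of Nktr, Gm38190 inside an intron of Tiprl and the long intergenic RNA 2610037D02Rik followed. Gm10848, Tsix, Gm26724 and E530011L22Rik lie opposite another gene and Gm38190 lies within one. Whether their reads were kept apart from those of that gene is not known. Coding genes among the 10 were Gria2, a subunit of AMPA-type glutamate receptors, with 257, 330 and 423 CPM in members and 37.9, 38.6 and 36.8 CPM in beta barcodes, Gcg, Etv1 and Slc25a27, a mitochondrial carrier.

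The 10 lower genes by the same order were Cebpzos, Dctn3, Polr2j, Nme2, Ndufa1, S100a1, Cib2, Sdf2l1, Ccdc85b and Ucn3. The median exonic length of all 347 lower genes was 2.18 kb, against 8.96 kb for the higher genes and 5.60 kb for all genes past the floor. Nme2, a nucleoside diphosphate kinase, had 143, 149 and 206 CPM in members and 770, 767 and 1014 CPM in beta barcodes. Ndufa1, a subunit of respiratory complex I, had 31.8, 31.0 and 31.0 CPM in members and 196, 183 and 152 CPM in beta barcodes. Ucn3, a peptide of mature beta cells that acts on delta cells, had 110, 106 and 134 CPM in members and 517, 469 and 562 CPM in beta barcodes. Log2 ratios of the 10 genes lay between -2.07 and -3.20 in these 3 libraries.

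Long introns went with a higher level in members. Genes with 50 kb or more of intron supplied 31.7%, 33.1%, 27.8% and 26.6% of the UMIs of members in CCR2-DTR and WT islets at 6 months and CCR2-DTR and WT islets at 1 month, against 21.7%, 22%, 20.4% and 20.7% in beta barcodes. The difference was 9.51 ± 1.93 percentage points (SD, n = 3 libraries with 50 or more members). Such genes were 46.5% of the higher genes and 6.92% of the lower genes, against 30.6% of all genes past the floor. In CCR2-DTR islets at 6 months the median log2 ratio was -1.07 for genes with under 5 kb of intron, -0.21 for 5 to 20 kb, 0.35 for 20 to 50 kb, 0.60 for 50 to 100 kb and 0.91 for 100 kb or more. The same bins gave -1.27, -0.38, 0.30, 0.59 and 0.87 in WT islets at 6 months and -0.51, -0.14, 0.20, 0.43 and 0.74 in CCR2-DTR islets at 1 month. The medians were ordered by intron length in each of these libraries.

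Exonic length moved with intron length and gave a wider range. In CCR2-DTR islets at 6 months the median log2 ratio was -1.94 for genes with under 1 kb of exon, -1.65 for 1 to 2 kb, -0.66 for 2 to 5 kb and 0.76 for 5 kb or more, over coding genes. Among coding genes with 5 kb or more of exon, those with 50 kb or more of intron stood at 0.84, 0.81 and 0.64 in CCR2-DTR and WT islets at 6 months and CCR2-DTR islets at 1 month, against 0.73, 0.63 and 0.42 for those with under 20 kb. Among coding genes with 2 to 5 kb of exon the same intron classes stood at -0.30, -0.26 and -0.41 against -0.68, -0.90 and -0.42. Within a class of exonic length the intron classes were thus closer than over all genes, and in CCR2-DTR islets at 1 month they were 0.01 apart among genes with 2 to 5 kb of exon.

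A runs moved with the same lengths. An A run of 10 or more was annotated in 56.5% of the 370 higher genes and 12.7% of the 347 lower genes. The median log2 ratio of genes with such a run was 0.71, 0.69 and 0.46, against -0.16, -0.33 and -0.09 for genes without one. Held to 2 to 4 kb of exon, genes with a run stood at -0.59, -0.66 and -0.42 and genes without one at -0.88, -1.09 and -0.52. The difference was smaller at this length and kept its sign in these 3 libraries. In WT islets at 1 month, with 32 members, genes with a run stood at -0.13 and genes without one at -0.09. The parts of exonic length, intron length and A runs in the ratios were not tested beyond these classes.

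**Figure D4:**
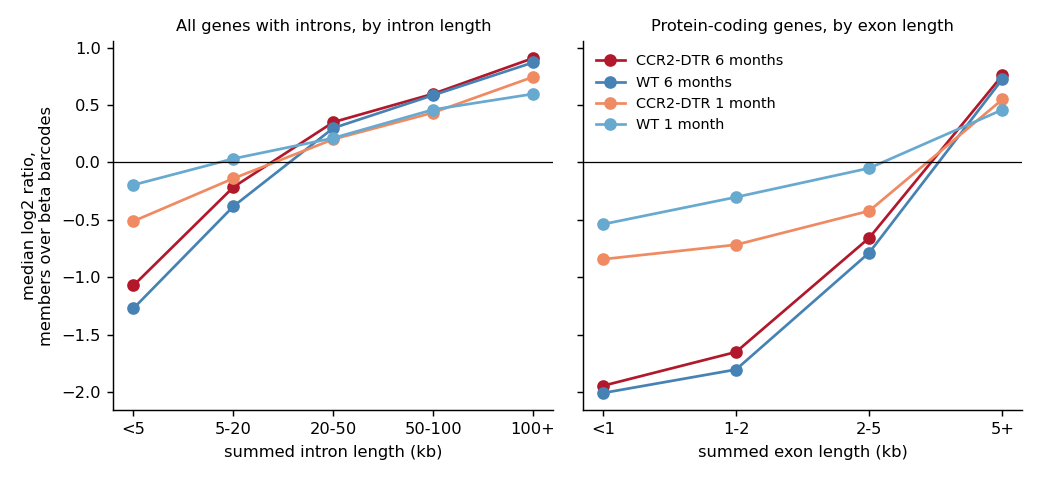
Median log2 ratio, members over beta barcodes, of genes grouped by summed intron length (all genes with introns, left) and by exonic length (coding genes, right), with 1 line per library. The medians run from -1.07 to 0.91 over intron classes and from -1.94 to 0.76 over exon classes in CCR2-DTR islets at 6 months.

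Barcodes of 1000 to 3000 UMIs with 20% or more insulin also had high nuclear RNA, at median depths of 1485, 1366 and 1239 UMIs against 1997, 2091 and 1734 UMIs in members of CCR2-DTR and WT islets at 6 months and CCR2-DTR islets at 1 month. Malat1 stood at 51194, 76564 and 106011 CPM in these insulin-rich barcodes of the same libraries, the last value being above the 97334 CPM of members of that library. The summed nuclear list was 0.63 higher on the log2 scale in members than in them, averaged over the 3 libraries, against 2.26 higher than in beta barcodes. By library it stood at 161068, 170678 and 113750 CPM in members and 68026, 99844 and 124687 CPM in the insulin-rich barcodes. It was thus lower in members of CCR2-DTR islets at 1 month. The UMI share of long-intron genes was 3.75 percentage points higher in members. Of the genes past the floor, 2 were at least 2-fold higher and 10 at least 2-fold lower in members than in the insulin-rich barcodes in all 3 libraries. Many of the insulin-rich barcodes met the rule on the 8 genes: 103 in CCR2-DTR and 142 in WT islets at 6 months, and 252 in CCR2-DTR islets at 1 month.

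The endocrine class of members was described with marker genes of beta, alpha, delta and gamma cells other than the hormones. Several genes of the rule are themselves beta-high, so the rule bears on the class: in CCR2-DTR islets at 6 months Mlxipl stood at 338 CPM in beta and 23.9 CPM in alpha barcodes, Phactr1 at 351 and 43.9 CPM, Insrr at 192 and 14.1 CPM and Madd at 190 and 50.4 CPM. Shallow alpha barcodes could thus seldom meet it, and the values below are a description of the chosen barcodes. At 6 months the level of beta markers was nearest to that of beta barcodes. Their summed level was 7235 CPM in members of CCR2-DTR islets and 6826 CPM in members of WT islets, against 8728 and 8649 CPM in beta barcodes, 1146 and 1144 CPM in alpha barcodes and 769 and 1234 CPM in low-depth endothelial barcodes. Members stood at 0.829 times (interval 0.807 to 0.852) and 0.789 times the beta level. The mean log2 ratio over the 3 libraries with 50 or more members was -0.60 ± 0.52 (SD, n = 3) and changed sign, to 0.044, with insulin kept in the totals (0.41, 0.36 and -0.63 by library). At 1 month the summed level was 3601 CPM in CCR2-DTR members and 1948 CPM in WT members, against 8259 and 8522 CPM in beta barcodes. On this list members of the 6-month libraries were closer to beta than to alpha barcodes, and those of the 1-month libraries lay between.

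Single beta genes differed in how far they were kept. Slc2a2, which encodes the glucose transporter GLUT2, had 730, 649 and 289 CPM in members and 950, 873 and 818 CPM in beta barcodes of CCR2-DTR and WT islets at 6 months and CCR2-DTR islets at 1 month. Its level in alpha barcodes was 21.6 and 23.2 CPM at 6 months. Nkx6-1, a transcription factor of beta cells, had 501, 439 and 279 CPM in members and 604, 656 and 542 CPM in beta barcodes. These genes were kept at most of their beta level at 6 months. Pdx1, which activates insulin and other beta genes, had 229, 202 and 134 CPM in members and 183, 216 and 211 CPM in beta barcodes. Ppp1r1a, an inhibitor of protein phosphatase 1, had 202, 201 and 196 CPM in members and 855, 826 and 960 CPM in beta barcodes, and with Ucn3 was among those far below. With each barcode thinned to 1000 UMIs, Slc2a2 had a UMI in 43.5% of members and 40.2% of beta barcodes in CCR2-DTR islets at 6 months, and in 8.11% of low-depth endothelial barcodes, which should lack it. Before thinning, at median depths of 1997 and 27951 UMIs, it had a UMI in 62.6% of members and 98.7% of beta barcodes.

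Of 4 transcription factors that several islet classes share, picked after their values were seen, 3 were higher in members. Isl1 had 628, 705 and 537 CPM in members and 270, 316 and 265 CPM in beta barcodes of CCR2-DTR and WT islets at 6 months and CCR2-DTR islets at 1 month. Pax6 had 945, 876 and 475 CPM in members and 402, 395 and 371 CPM in beta barcodes. Rfx6, which acts in endocrine differentiation, had 272 and 234 CPM in members and 78.3 and 76.8 CPM in beta barcodes at 6 months. Neurod1 did not follow them, with 342 and 278 CPM in members and 343 and 346 CPM in beta barcodes at 6 months. The full list of shared endocrine markers, which holds these 4 genes, was lower in members. It summed to 11543, 12261 and 16602 CPM, against 29070, 31071 and 27974 CPM in beta barcodes of the same 3 libraries. Of all genes past the floor, 56.9%, 54.5% and 55.0% were higher in members.

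Alpha and delta markers stood far below the level of their own classes. The alpha list summed to 6000, 5867 and 5500 CPM in members and 4382, 3907 and 4629 CPM in beta barcodes of CCR2-DTR and WT islets at 6 months and CCR2-DTR islets at 1 month, against 35862, 37270 and 27901 CPM in alpha barcodes. Peg3, an imprinted gene of that list, supplied most of the excess, with 4236, 4362 and 2497 CPM in members and 2168, 2166 and 1848 CPM in beta barcodes. Its level in alpha barcodes, 1644, 1554 and 1644 CPM, was below both. The mean log2 ratio of the list was 0.43 ± 0.17 (SD, n = 3 libraries) with Peg3 and Malat1 in the lists and -0.14 without them, and -0.13 against the low-depth insulin-rich barcodes. The delta list summed to 574, 394 and 1125 CPM in members and 841, 590 and 834 CPM in beta barcodes, against 5343, 5124 and 6978 CPM in delta barcodes. Hhex, the transcription factor of delta cells, had 3.98, 8.66 and 51.6 CPM in members, against 239, 229 and 284 CPM in delta barcodes. Hhex was thus near 0 in members at 6 months and higher, though below delta barcodes, in the 60 members of CCR2-DTR islets at 1 month.

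Hormone RNA could not be read the same way. With barcodes thinned to 1000 UMIs, Gcg had a UMI in 99.1% of members and 47.0% of beta barcodes of CCR2-DTR islets at 6 months, but also in 86.5% of low-depth endothelial barcodes (32 of 37), which should lack it. Before thinning these shares were 99.8%, 99.9% and 94.6%. Gcg made up 0.726% and 0.617% of UMIs in members of CCR2-DTR and WT islets at 6 months, 0.0706% and 0.0758% in beta barcodes and 0.230% and 0.391% in low-depth endothelial barcodes. Gcg RNA was thus present in barcodes that should lack it and made up a larger share of UMIs in members than in those, and it was not used to describe the class. The source of the Gcg RNA was not tested. The median insulin share of 15.6%, 14.9%, 14.7% and 4.62% in members had its counterpart in 8.80%, 10.3%, 8.65% and 3.77% in low-depth endothelial barcodes. A second hormone reached 5% of UMIs in 9 members of CCR2-DTR and 8 of WT islets at 6 months, 2.03% and 1.03% of them, and in 7 of CCR2-DTR and 12 of WT islets at 1 month, 11.7% and 37.5%.

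Barcode by barcode, after thinning, the beta list held the most UMIs in 55.2% of members in CCR2-DTR islets and 55.5% in WT islets at 6 months, against 70.7% and 73.9% of beta barcodes and 0% of alpha barcodes. The alpha list led in 34.0% and 32.4% of these members, against 16.2% and 13.9% of beta barcodes. At 1 month the order was turned: the alpha list led in 51.7% of members in CCR2-DTR islets (31 of 60) and 40.6% in WT islets (13 of 32), and the beta list in 30% and 21.9%. In WT islets at 1 month the delta list led in a further 21.9% of members. Of beta barcodes at 1 month the alpha list led in 17.8% and 16.8% and the beta list in 69.4% and 69.8%, CCR2-DTR before WT. Peg3 counts towards the alpha list here too. The gamma list, of 4 genes, summed to 883, 1071, 836 and 923 CPM in members and 343, 394, 321 and 326 CPM in beta barcodes of CCR2-DTR and WT islets at 6 months and CCR2-DTR and WT islets at 1 month, against 659, 647, 760 and 751 CPM in gamma barcodes. Members were above both on this list. Its largest part was Meis2, with 786, 933, 578 and 478 CPM in members and 309, 354, 277 and 284 CPM in beta barcodes, against 252, 246, 287 and 272 CPM in gamma barcodes.

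**Figure D5:**
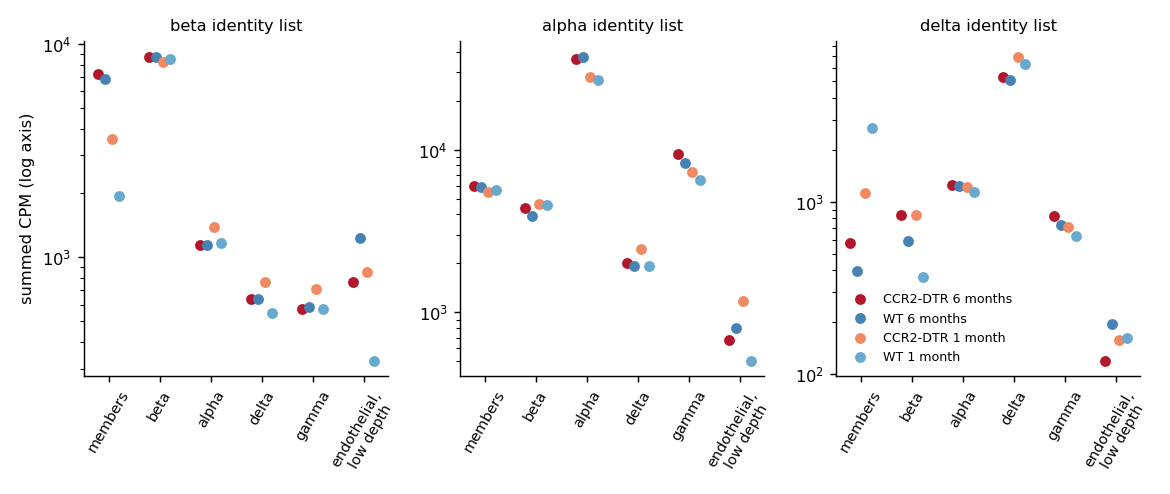
Summed CPM of the beta, alpha and delta marker lists without the hormones (log axes) in members and in beta, alpha, delta, gamma and low-depth endothelial barcodes, 1 point per library. The beta list stands at 7235 and 6826 CPM in members of the 6-month libraries, near the beta barcodes, and at 3601 and 1948 CPM in those of the 1-month libraries.

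Endothelial and mesenchymal RNA was low in the 6-month members and higher in the 1-month members, while acinar RNA was higher in the 6-month members. Endothelial markers summed to 37.1 and 46.9 CPM in members of CCR2-DTR and WT islets at 6 months, and to 702 and 2358 CPM at 1 month. Mesenchymal markers summed to 61.0 and 10.8 CPM at 6 months and 960 and 2477 CPM at 1 month. The 1-month members, 60 and 32 barcodes, thus carried both kinds of marker at levels that the 6-month members lacked. Acinar markers were higher in CCR2-DTR members at both ages, at 2795 CPM in CCR2-DTR and 296 CPM in WT members at 6 months and 1506 and 171 CPM at 1 month. A wider set of digestive enzyme and Reg genes made up 0.300% and 0.0335% of members' UMIs at 6 months, CCR2-DTR before WT. At 1 month it went the other way, at 0.171% and 0.243%. Genotype and library cannot be told apart here. The parts of these other cells in the levels above were not tested. Of all members 65 carried markers of another type or a second hormone, and without them the 6-month libraries had 428 and 763 members and the 1-month libraries 43 and 14, CCR2-DTR before WT.

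CCR2-DTR members were set against WT members at 6 months, where both libraries had 444 members or more. Of 4001 genes past the floor, 33 (0.825%) were at least 2-fold higher and 10 (0.25%) at least 2-fold lower in CCR2-DTR members, against 2 (0.0558%) and 8 (0.223%) of 3587 genes in beta barcodes of the same libraries. Ccr3, a chemokine receptor gene, had 17 UMIs in CCR2-DTR members and 0 in WT members, and Ccr2 had 8 and 0. Of the 33 higher genes 11 were acinar markers, which together were 9.45 times as high in CCR2-DTR members. Igkc, an immunoglobulin light chain constant region made by B lineage cells, had 57.0 CPM in CCR2-DTR and 3.61 CPM in WT members, and in beta barcodes 33.5 and 0.961 CPM. The acinar list stood at 309 CPM in CCR2-DTR and 35.6 CPM in WT beta barcodes. Acinar markers and Igkc were thus higher in both kinds of barcode. The B cell marker list differed less in beta barcodes, at 80.5 CPM in CCR2-DTR and 65.3 CPM in WT islets. In members it stood at 23.9 and 4.33 CPM, from 18 and 6 UMIs.

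Named genes apart from those included Mgp, a matrix protein gene, with 74.2 CPM in CCR2-DTR and 6.49 CPM in WT members, and Gm37459, which overlaps Pex5l on the opposite strand, with 147 and 55.5 CPM. Cish, an inhibitor of cytokine and prolactin receptor signalling, had 23.9 CPM in CCR2-DTR and 201 CPM in WT members, a log2 ratio of -3.07, and 21.8 and 119 CPM in beta barcodes, a log2 ratio of -2.45. Sst, the hormone of delta cells, had 480 CPM in CCR2-DTR and 1370 CPM in WT members, and 253 and 447 CPM in beta barcodes. Sst reached 5% of UMIs in 0 CCR2-DTR and 2 WT members. In beta barcodes Mgp had 23.9 and 7.01 CPM and Gm37459 had 37.3 and 18.5 CPM. The differences of Mgp, Gm37459, Cish and Sst had the same direction in members and in beta barcodes. Faf1, whose introns span 282 kb, had 17.2 CPM in CCR2-DTR and 50.5 CPM in WT members but 46.3 and 50.1 CPM in beta barcodes.

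The lists that set members apart from beta barcodes were near equality between CCR2-DTR and WT members at 6 months. The nuclear list stood at 0.944 times in CCR2-DTR members relative to WT members (interval 0.937 to 0.950) and the ribosomal protein list at 1.10 times. Immediate early and heat shock genes, which respond to dissociation, were 1.53 times as high (1.47 to 1.60), with 11 of 12 genes higher in CCR2-DTR members and 1 of them counted at 2-fold. In beta barcodes they were 1.12 times as high, with 10 of 11 genes higher. The median log2 ratio of the list was 0.59 in members and 0.31 in beta barcodes, against 0.04 and -0.01 over all genes past the floor. Fos had 555 CPM in CCR2-DTR and 318 CPM in WT members, and 189 and 145 CPM in beta barcodes. Egr1 had 534 CPM in CCR2-DTR and 298 CPM in WT members, and 202 and 162 CPM in beta barcodes. Both genes were higher in members than in beta barcodes of the same library, but not than in every endocrine set. Fos had 828 and 422 CPM in alpha barcodes, CCR2-DTR before WT. Egr1 had 439 and 244 CPM in alpha barcodes, below members, and 577 and 303 CPM in delta barcodes, above them.

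In CCR2-DTR islets, 6-month members were set against 1-month members, 444 against 60 barcodes. Of 4768 genes past the floor, 430 (9.02%) were at least 2-fold higher and 575 (12.1%) at least 2-fold lower at 6 months, against 17 (0.468%) and 34 (0.936%) of 3634 genes in beta barcodes. Snhg11, a noncoding host gene of islets and neurons, had 486 CPM at 6 months and 103 CPM at 1 month in members, and 76.3 and 9.57 CPM in beta barcodes. Gm49542, Gm34759, Cnot10 and Plcxd2 were the other genes named as higher. Genes named as lower were the cell cycle genes Cenpf, with 0 UMIs at 6 months and 18 at 1 month, and Top2a, with 0 and 17, the transcription factor gene Zeb2, with 0 and 17, the antigen presentation gene Cd74, with 12 and 77, and Rgcc, with 5 and 40. The lists moved with these genes: the endothelial list stood at 0.0529 times, the mesenchymal list at 0.0635 times and the cycling list at 0.0201 times the 1-month level, the beta list at 2.01 times and the ribosomal protein list at 0.420 times. The cycling difference was not particular to members, since the list stood at 0.0198 times in beta barcodes, where Cenpf and Top2a stood at 0.0096 and 0.0088 times. The ribosomal protein list stood at 1.12 times in beta barcodes. Age and the mix of other cell types among members cannot be told apart in these libraries.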

How the data were processed

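Cell Ranger 5.0.1 and mm10 appear in the submitters' processing notes, and the deposited values are raw counts of UMIs for 32285 genes in each barcode. Other deposited files name barcodes and genes (unit: other). The chemistry, and whether introns or strand were counted, were not given in the sources used here. Empty droplets were not analysed here, so free RNA was judged from endothelial barcodes.

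Members, lists and tests were chosen with earlier results of these data known. Counts were summed per set and library (Python 3.11.15, numpy 2.4.6, scipy 1.17.1, pandas 2.3.3). Insulin genes were left out of CPM totals. Ratios have exact conditional 95% intervals for 2 Poisson counts, and shares have Clopper-Pearson intervals. A gene was compared with at least 50 CPM in either set and 10 UMIs over both, and counted as higher or lower at 2-fold with an interval excluding 1 in each library with 50 or more members. With 1 library per group no test between groups was run. Calls were tested on simulated counts. Lists held 297 entries in 17 lists, 292 of them found. Named genes were the 10 highest and 10 lowest over beta barcodes by their least extreme library, and the 5 highest and lowest between libraries by the interval bound nearest 1, without genes of the rule, insulin, mitochondrial, haemoglobin and digestive enzyme genes, besides genes of the lists. Some items that these rules name are not reported here. Intron and exon lengths are from GENCODE vM21 (99.8% of 32285 genes matched). Doublets were not removed: a Scrublet score (scanpy 1.11.5) above 0.25 marked 900 of 26121 passing barcodes (3.45%) and 3 members.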

Additional observations from a re-analysis of the deposited data

Results flagged for a closer look

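The share of members pointed in opposite directions with genotype at the 2 ages: it was 0.484 times as high in CCR2-DTR as in WT islets at 6 months and 1.91 times as high at 1 month. The difference between these ratios was not tested, since each rests on 1 library per group. The 1-month ratio rests on 60 and 32 members, and the insulin shares and markers of other cells given above move with it.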

How the results depend on the processing

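No paired analysis was possible because each group is 1 library. Settings that left 2 libraries with 50 or more members ask 2 libraries, not 3, to agree on a gene and count more genes by construction, and 2 of 8 marker genes or no insulin limit ask 4. Of 178 alternative values 110 stayed on the same side and within the limits set, 59 moved and 9 reversed. Below, share ratios are in the order CCR2-DTR over WT at 6 months and 1 month, then 6 over 1 month in CCR2-DTR and WT; list values are log2 ratios of members over beta barcodes, which as reported were -0.60 for the beta list, 0.43 for the alpha list, -0.23 for the delta list and -1.52 for ribosomal proteins.

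With 2 of 8 marker genes the age ratios were 7.996 and 25.2, the nuclear list 1.85, the beta list -1.29, the delta list 0.56 (reversed), the long-intron difference 7.37 points, and 87 genes were higher and 154 lower. With 4 of 8 the 1-month genotype ratio was 3.16, the age ratios 24.1 and 162, and 999 genes were higher and 931 lower. At 1000 to 2000 UMIs the genotype ratio at 6 months was 0.628, the age ratio in WT 41.4, with 969 genes higher and 872 lower, and 98 higher and 61 lower between genotypes. An insulin limit of 10% gave 0.0605 and 0.471 (reversed) for genotype and 0.338 (reversed) and 2.63 for age, and left fewer than 50 members for lists and genes. It kept 2 and 28 members at 6 months and 12 and 26 at 1 month, CCR2-DTR before WT. Without an insulin limit the 1-month genotype ratio was 5.40, the age ratios 3.56 and 38.1, the delta list 0.25 (reversed), and 125 genes were higher, 94 lower and 6 lower between genotypes. A mitochondrial limit of 5% gave an age ratio of 24.4 in CCR2-DTR, a delta list of -0.84, 987 genes higher and 979 lower, and 55 and 23 between genotypes.

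Over all deposited barcodes the genotype ratio at 6 months was 0.409, and over barcodes of 1000 to 3000 UMIs it was 0.720, with age ratios of 7.81 and 15.7. With CPM over all UMIs the nuclear list was 2.90, the alpha list 1.08, the beta list 0.044 (reversed), the delta list 0.41 (reversed), and 829 genes were higher and 35 lower. Against low-depth insulin-rich barcodes the nuclear list was 0.63, the alpha list -0.13 (reversed), the delta list 0.052 (reversed), the long-intron difference 3.75 points, and 2 genes were higher and 10 lower. With introns of 100 kb or more the difference was 6.13 points. Without a CPM floor 172 and 133 genes differed between genotypes. At 4-fold 21 genes were higher and 15 lower, and 21 and 1 between genotypes. Leaving out 1 library gave 392 to 993 genes higher and 359 to 929 lower, the highest counts without CCR2-DTR at 1 month. Without members that carried another type's markers the 1-month genotype ratio was 3.14, the age ratios 20.2 and 133, and 1006 genes were higher and 939 lower. Without Malat1 and Peg3 the nuclear list was 2.02 and the alpha list -0.14 (reversed). The last 3 settings on insulin, other types' markers and left-out genes were chosen after seeing the data. Direction held for the means over libraries of the nuclear list, ribosomal proteins and the long-intron share in all settings with a value. Against low-depth insulin-rich barcodes the nuclear list was lower in members of CCR2-DTR islets at 1 month. For the beta, alpha and delta lists and for the 1-month shares direction did not hold, and the cause was not tested. The 1-month values rest on 60 and 32 members.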
